A study of Rattus norvegicus with 10 samples.

Results

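Rats with high prepulse inhibition (PPI) were compared with rats with low prepulse inhibition, using the log2 expression values of their prefrontal cortex. Members were chosen by the prepulse inhibition score in the labels: a score above 37 placed 4 rats (rats 4, 5, 8 and 9) in the high group, and a score below 19 placed 3 rats (rats 1, 2 and 3) in the low group. These are 7 of the 10 rats of the series. The other 3 (rats 6, 7 and 10) had middle scores, were left out of the tests and are shown only beside them. Just inside the limits were rat 9 with a score of 37.4 and rat 3 with 18.4, and just outside were rat 7 with 26.7 and rat 10 with 25.3. All were untreated males of the inbred Lewis strain, and the labels give a body weight but neither age nor a genotype beyond the strain. They came from 40 rats tested for behaviour and were killed 6 days after the last test. The tissue was frontal cortex (areas Fr1 and Fr2) taken without the olfactory bulb, and each rat gave 1 Affymetrix array. Each value is 1 animal, so p-values measure the spread between animals.

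Prepulse inhibition is the reduction of the startle to a loud sound when a weaker sound comes shortly before it. It is used as a measure of sensorimotor gating, the filtering of sensory input before it drives a response. The circuit runs through the brainstem and is tuned by the prefrontal cortex, the striatum and their dopamine input, and reduced inhibition has been described in schizophrenia. The labels state no unit for the score, and a larger score is read here as stronger inhibition, which is the usual convention.

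The prepulse inhibition scores averaged 39.9 with an SD of 2.14 in the 4 high rats and 12.0 with an SD of 5.89 in the 3 low rats. That gap is how the groups were made and is not a result. Sugar feeding was 1.50, 0, 0.50 and 0.65 in high rats 4, 5, 8 and 9 and 1.95, 1.65 and 2 in low rats 1, 2 and 3. The groups did not overlap in sugar feeding, all 3 low rats lying above all 4 high rats. The exact permutation test of the means gave a two-sided p = 0.0571, the smallest that 4 against 3 rats allows, and an adjusted p = 0.171 over the 3 other scores tested. Startle averaged 706.5 in the high rats (SD 180, n = 4) and 481 in the low rats (SD 179, n = 3), and the groups overlapped (exact permutation p = 0.171, adjusted 0.257). Locomotion overlapped as well, from 10278 to 17987 in the high rats and from 12985 to 17045 in the low rats (exact permutation p = 0.4, adjusted 0.4). High prepulse inhibition and low sugar feeding therefore cannot be told apart in these 7 rats.

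**Figure D1:**
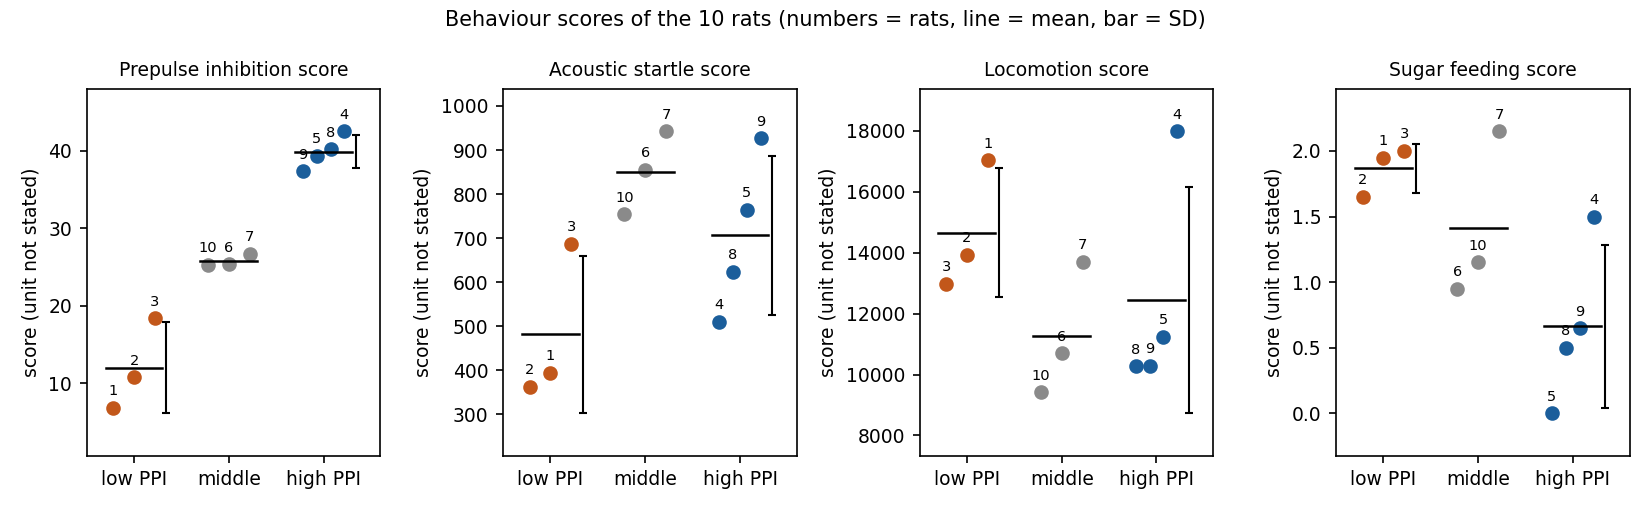
Each panel plots 1 behaviour score (y axis, unit not stated) for the 10 rats by group (x axis); points are rats with their numbers, lines are group means, and bars, drawn for the compared groups, are SDs. The prepulse inhibition scores made the groups; in the sugar feeding panel the 4 high rats (0 to 1.50) lie below the 3 low rats (1.65 to 2), while startle and locomotion overlap.

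Of 31042 probe sets that were not array controls, the platform annotation named 21262. A level of 3.99 log2, the median of all non-control probe sets, separated 11849 named probe sets at or above it from 9413 mostly near background. The arrays had medians of 3.91 to 4.02. Markers of cortical excitatory neurons were present at like levels in both groups: Slc17a7, the vesicular glutamate transporter of cortical neurons, averaged 12.72 in the high and 12.67 in the low rats. Scores of marker lists, the mean of the members' log2 values after subtraction of their mean over 10 rats, differed more. The meningeal and fibroblast score was highest in low rat 3 (0.74) and high rat 9 (1.04), against -0.68 to 0.10 in the 5 other compared rats. Of its 20 markers on the array 12 were at or above the level. Col1a1, a collagen gene, was at 9.22 in rat 3 and 9.49 in rat 9, against 6.91 to 8.53 in the other 5, while Lum, Foxc1 and Slc22a6 were below the level. Results were therefore also computed without rats 3 and 9. In bulk tissue, fewer cells of a type and less RNA per cell cannot be told apart.

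No gene passed the adjusted threshold between high and low rats. The smallest adjusted p over the 21262 named probe sets was 0.747 (limma, Benjamini-Hochberg), and 0 passed 0.05 (0.0%). An unadjusted p under 0.05 was reached by 878 (4.13%), of which 375 (1.76%) had the higher mean in high rats and 503 (2.37%) in low rats. After quantile normalization of the arrays this split turned to 931 higher and 311 lower, and with arrays centred on their medians it was 476 and 611. Leaving out single low rats also moved it, to 1756 and 407 without rat 1, 522 and 297 without rat 2 and 327 and 1252 without rat 3. The genes described next are thus those of smallest p, given with their values, and none is a call.

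Cbr1 had the smallest p of all named genes. It encodes a carbonyl reductase that uses NADPH to reduce carbonyl compounds. Its log2 value was 9.07, 8.98, 8.93 and 8.92 in high rats 4, 5, 8 and 9 and 8.58, 8.59 and 8.64 in low rats 1, 2 and 3. The lowest high rat lay above the highest low rat, and the middle rats, at 8.86, 9.07 and 8.91, lay above all low rats. The difference was 0.37 ± 0.04 (SE, n = 4 and 3), or 1.30-fold (limma adjusted p = 0.747). With Drd1 as a covariate, a fit described further on, it was 0.31 ± 0.05.

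Dbp and Medag followed with larger differences. Dbp, a transcription factor gene whose RNA cycles over the day, is described with the clock genes. Medag, named for a role in the formation of fat cells, was at 4.82, 4.65, 4.63 and 4.85 in high rats 4, 5, 8 and 9 and at 3.85, 4.21 and 4.11 in low rats 1, 2 and 3. The groups did not overlap, but the low values lay around the level that marks background, and 2 other Medag probe sets with higher signal differed by only 0.02 and 0.16. The difference on the first was 0.68 ± 0.10 (limma adjusted p = 0.772).

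The 7 other genes with higher means in the high rats differed by 1.13-fold to 1.34-fold. Coro1b, which encodes a coronin that binds actin, was at 7.46, 7.22, 7.16 and 7.36 in the 4 high rats and at 6.89, 6.88 and 6.87 in the 3 low rats, a difference of 0.42 ± 0.07. C7h8orf82 differed by 0.37 ± 0.06 and Necab3, a calcium-binding protein gene, by 0.29 ± 0.05. Mpp7, a scaffold gene of cell junctions, differed by 0.26 ± 0.04 and Urm1, which encodes a ubiquitin-like protein that supplies sulphur for tRNA modification, by 0.24 ± 0.04. The Mpp7 values of the 7 compared rats, 4.06 to 4.44, lay just above the level that marks background. The differences of Rtkn and Rpp25l, the latter related to a subunit of ribonuclease P, were 0.19 ± 0.03 and 0.18 ± 0.03. In each of these genes every high rat lay above every low rat.

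Among genes with lower means in the high rats, Idua had the smallest p. It encodes the lysosomal enzyme that removes iduronic acid from heparan and dermatan sulfate. Its value was 5.66, 5.71, 5.67 and 5.67 in high rats 4, 5, 8 and 9 and 6.22, 6.08 and 6.02 in low rats 1, 2 and 3. The 4 high rats were nearly equal and lay below all low rats, while middle rat 7 was lower still at 5.06. The difference was -0.43 ± 0.05, or 1.35-fold (limma adjusted p = 0.747).

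Nars2, the mitochondrial asparaginyl-tRNA synthetase gene, had the lowest signal of this group. It was at 4.21, 4.48, 4.08 and 4.40 in the high rats and 4.92, 5.06 and 5.02 in the low rats, a difference of -0.70 ± 0.10. Csnk2a2 encodes an enzyme subunit of the protein kinase CK2 and was at 8.95, 8.89, 8.82 and 8.96 in the high rats and 9.17, 9.26 and 9.28 in the low rats. Its difference was -0.33 ± 0.05, but of 3 other probe sets at or above the level 2 had the same sign and 1 the opposite, at 0.26.

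The 7 other genes with lower means have varied roles. Cdk12, a kinase of elongating RNA polymerase II, was at 7.81, 8.01, 7.90 and 8.01 in the high rats and 8.27, 8.30 and 8.21 in the low rats. Its difference was -0.33 ± 0.06, and a second Cdk12 probe set had -0.53. Aff4, a scaffold of the elongation complex, and Mphosph8, which binds methylated histone, had -0.25 ± 0.04 and -0.22 ± 0.04, with all 3 other Aff4 probe sets and the 1 other of Mphosph8 of the same sign. Rock2, a protein kinase gene, had -0.35 ± 0.06, with 3 of 3 other probe sets of that sign at smaller size (-0.15 to -0.07). Nf2, which encodes merlin, Slc7a14, of a lysosomal transporter family, and Hps3, of the biogenesis of lysosome-related organelles, had -0.23 ± 0.03, -0.25 ± 0.03 and -0.24 ± 0.03.

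None of these 20 genes changed sign after quantile normalization or centring. All 20 had groups that did not overlap, which the choice by p largely fixes. Among 8483 genes at or above the level, counted once each, 317 (3.74%) had all high rats above all low rats and 252 (2.97%) had all below. The middle group's mean lay between the means of the compared groups in 9 of the 20, against 30.0% of the 8483 genes. The choice by p favours a wide gap between those means, so the 30.0% is not a like background. In the other 11 the middle rats were thus not intermediate, though their scores were.

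**Figure D2:**
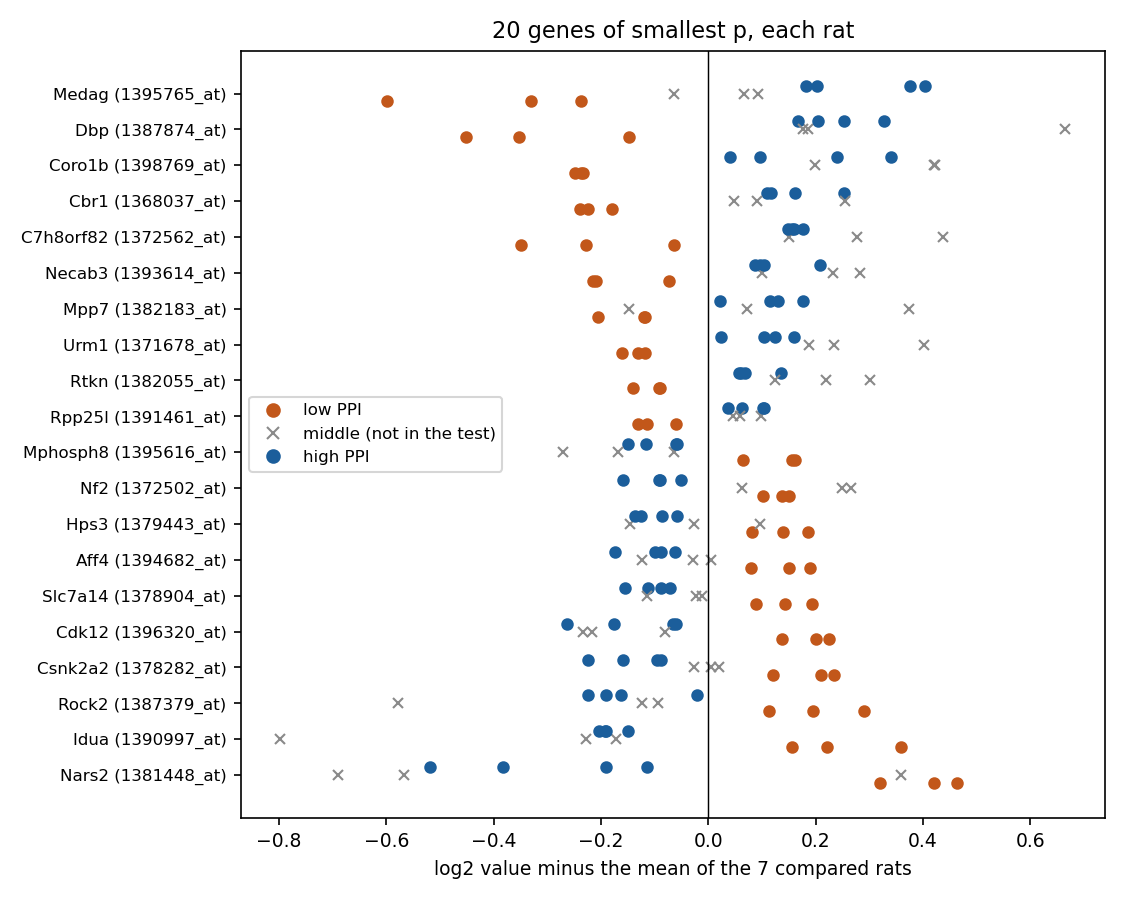
Rows are the 20 genes of smallest p (probe set in brackets) and the x axis is the log2 value minus the mean of the 7 compared rats; orange points are low rats, blue points high rats and grey crosses middle rats. High and low rats do not overlap in any row, and the crosses lie between the groups for Csnk2a2, whose middle rats were at 9.02 to 9.07, but beyond the high rats for Idua in rat 7.

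The core clock is a loop in which CLOCK, NPAS2 and BMAL1 activate the Per, Cry, Nr1d, Bhlhe and Dbp genes, whose products then repress that activation or act on other genes. Levels of these RNAs depend on the time of day, in cortex as elsewhere. The labels give a light-dark cycle and say that killing was in random order, and the hour of each rat's death is not among the labels used here. Of 18 clock genes at or above the level, 9 had the higher mean in high rats and 9 the lower, with a median difference of 0.01. An unadjusted p under 0.05 was reached by 5 higher and 1 lower, against 3.04% and 3.91% of all 8483 genes (6.96% in either direction). The count was the same after either rescaling of the arrays, but 3 higher and 3 lower without rats 3 and 9, where 8 genes had the higher mean and 10 the lower.

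The output gene Dbp was at 9.34, 9.41, 9.25 and 9.29 in high rats 4, 5, 8 and 9 and at 8.94, 8.73 and 8.63 in low rats 1, 2 and 3. The high rats were close to each other and above all low rats, and middle rat 7 was highest of all at 9.75. The difference was 0.56 ± 0.08, or 1.47-fold (limma adjusted p = 0.747). Per1, a repressor of the loop that glucocorticoids and neuronal activity also induce, was at 6.27, 6.30, 6.01 and 5.97 in the high rats and 5.17, 5.25 and 5.89 in the low rats. Low rat 3 was close to the high group, and the difference was 0.70 ± 0.19, or 1.63-fold. The 3 middle rats, at 6.14, 6.07 and 6.00, were like the high rats in Per1.

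Nr1d2, which encodes the repressor REV-ERB beta, was at 10.36, 10.31, 10.26 and 10.42 in the high rats and 10.18, 10.19 and 10.02 in the low rats. Its difference was 0.21 ± 0.06, and both other probe sets had the same sign, at 0.21 and 0.47. Bhlhe40 and Bhlhe41 encode repressors that bind the same DNA motif as CLOCK and BMAL1. Bhlhe40 was at 8.84, 8.91, 8.85 and 9.05 in the high rats and 8.78, 8.82 and 8.59 in the low rats, with only a narrow gap between the groups. Bhlhe41 was at 10.08, 9.82, 10.01 and 9.90 against 9.81, 9.76 and 9.78, a gap as narrow, and all 3 middle rats lay above both groups. Their differences were 0.18 ± 0.07 and 0.17 ± 0.06.

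Cry2, a repressor of the loop, had the lower mean in high rats. Its values were 9.01, 8.85, 8.86 and 8.93 in the high rats and 9.19, 9.04 and 9.04 in the low rats, a difference of -0.18 ± 0.06 with no overlap. The activators Clock, Npas2 and Bmal1 differed by -0.04 ± 0.17, 0.04 ± 0.06 and -0.20 ± 0.16, and Per3 by 0.05 ± 0.13. Per2 differed by -0.02 ± 0.12, a sign that turned after quantile normalization. The outputs Tef and Hlf, relatives of Dbp, differed by -0.06 ± 0.09 and -0.09 ± 0.08. Without rats 3 and 9 the differences were 0.98 for Per1, 0.50 for Dbp, 0.12 for Nr1d2, -0.21 for Cry2, -0.20 for Hlf and -0.22 for Rorb, a nuclear receptor gene of the loop, all with an unadjusted p under 0.05, and 0.07 for Bhlhe40 and 0.19 for Bhlhe41, whose p then lay above it.

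The promoters of the 5 clock genes with the higher mean and an unadjusted p under 0.05 are shown. The loop is known to act through short DNA motifs, and a reader can see where such letters stand in these promoters. Each window runs from 250 bases before to 50 after the gene start in RefSeq's GRCr8 assembly: chr1:105312006-105312305 on the plus strand for Dbp, chr10:54304126-54304425 on the plus strand for Per1, chr15:9954784-9955083 on the plus strand for Nr1d2, chr4:143174200-143174499 on the plus strand for Bhlhe40 and chr4:180569306-180569605 on the minus strand for Bhlhe41. Capitals mark matches to any of 4 motifs on either strand, namely the E-box CACGTG, the D-box TTANGTAA, the cyclic AMP response element TGACGTCA and the ROR element TAGGTCA, and no 2 matches overlap.
Dbp: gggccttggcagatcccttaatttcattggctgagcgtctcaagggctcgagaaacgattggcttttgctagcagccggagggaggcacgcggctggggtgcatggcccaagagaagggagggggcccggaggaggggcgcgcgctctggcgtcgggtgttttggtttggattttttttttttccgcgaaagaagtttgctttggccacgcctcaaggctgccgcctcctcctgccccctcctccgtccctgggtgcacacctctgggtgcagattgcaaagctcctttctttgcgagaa
Per1: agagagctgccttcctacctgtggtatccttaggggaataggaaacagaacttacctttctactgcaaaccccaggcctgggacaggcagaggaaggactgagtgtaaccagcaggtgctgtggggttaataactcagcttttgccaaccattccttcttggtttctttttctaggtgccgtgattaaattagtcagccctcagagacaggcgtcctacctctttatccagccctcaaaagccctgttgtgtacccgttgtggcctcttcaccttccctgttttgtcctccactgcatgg
Nr1d2: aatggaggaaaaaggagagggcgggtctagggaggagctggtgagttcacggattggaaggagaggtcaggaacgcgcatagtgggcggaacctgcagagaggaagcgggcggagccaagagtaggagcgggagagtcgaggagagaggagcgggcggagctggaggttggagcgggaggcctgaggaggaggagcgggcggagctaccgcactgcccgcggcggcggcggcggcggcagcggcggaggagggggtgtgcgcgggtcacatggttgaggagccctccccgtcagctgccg
Bhlhe40: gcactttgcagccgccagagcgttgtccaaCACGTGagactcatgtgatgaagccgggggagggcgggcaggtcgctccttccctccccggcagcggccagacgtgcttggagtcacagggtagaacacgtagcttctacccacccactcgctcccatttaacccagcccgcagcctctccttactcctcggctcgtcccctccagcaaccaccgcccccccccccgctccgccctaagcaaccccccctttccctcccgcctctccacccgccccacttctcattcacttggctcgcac
Bhlhe41: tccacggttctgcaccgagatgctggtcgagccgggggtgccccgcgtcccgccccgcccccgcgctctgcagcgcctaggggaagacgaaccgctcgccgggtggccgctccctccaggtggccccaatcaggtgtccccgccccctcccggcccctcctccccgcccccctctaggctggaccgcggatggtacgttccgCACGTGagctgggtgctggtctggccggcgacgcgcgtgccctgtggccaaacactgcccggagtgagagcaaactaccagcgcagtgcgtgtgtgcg
The E-box occurs once in Bhlhe40, 220 bases before the gene start, and once in Bhlhe41, 48 bases before it. Clock genes without an unadjusted p under 0.05 held matches too, in windows not printed. Tef has the E-box 198 bases before its start, Per2 the D-box and Bmal1 the ROR element. The windows of Dbp, Per1 and Nr1d2, and that of Cry2, not printed, hold none of the 4 strings, which says only that these letters are not in these 300 bases. Of 27457 RefSeq promoters of that length, 6.65% hold the E-box, 2.19% the D-box, 1.91% the cyclic AMP element and 2.6% the ROR element. A match is a string of letters and was not tested for binding.

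**Figure D3:**
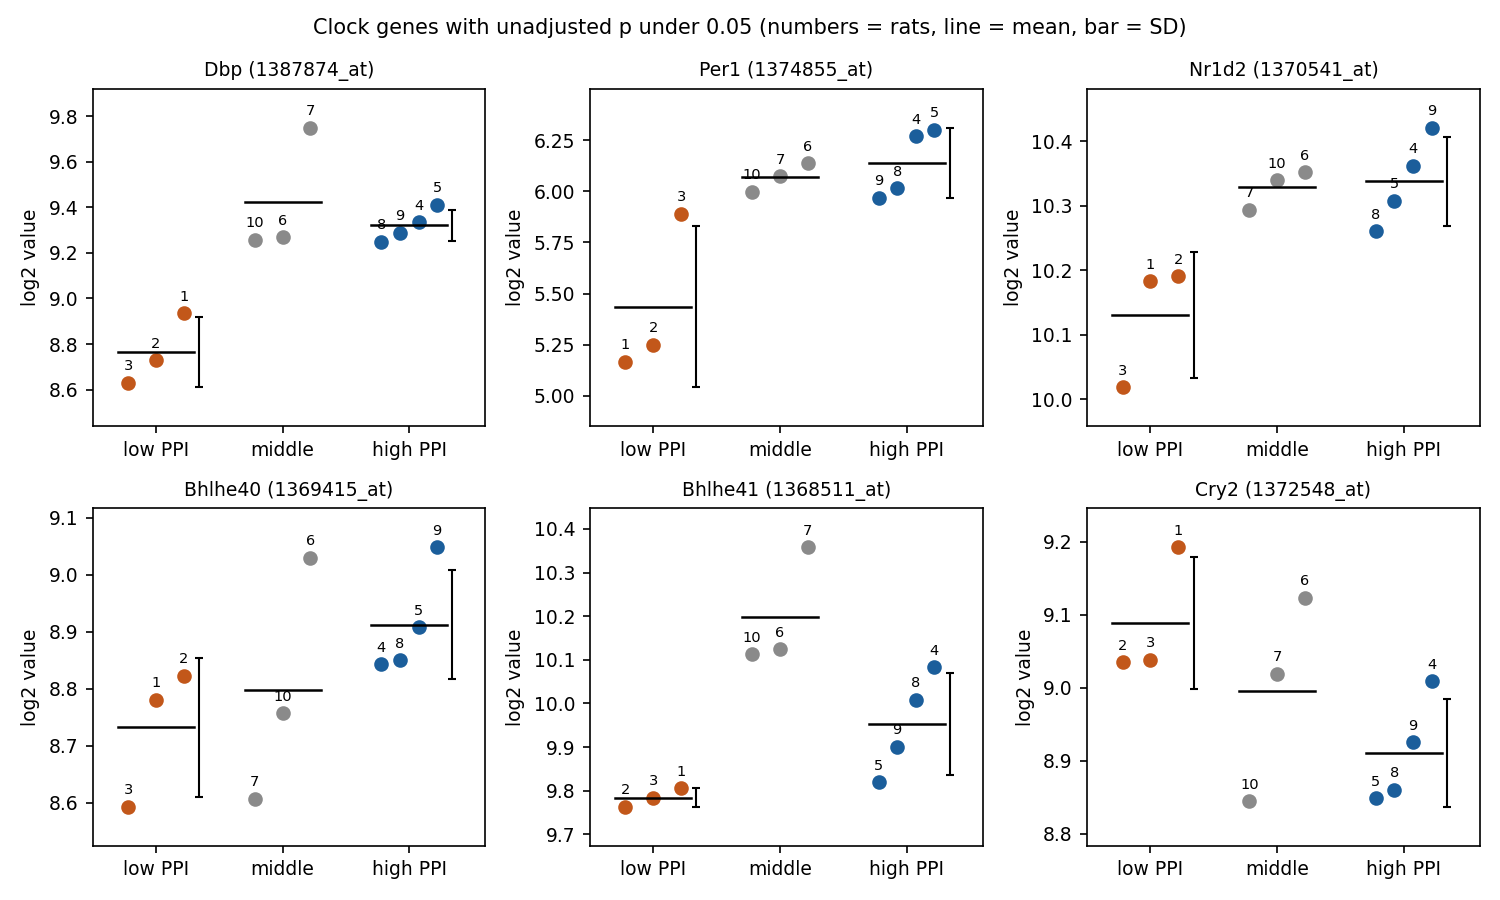
Each panel plots the log2 value (y axis) of 1 clock gene for the rats by group (x axis); points are rats with their numbers, lines are group means and bars, drawn for the compared groups, are SDs. Every high rat lies above every low rat for Dbp, Per1, Nr1d2, Bhlhe40 and Bhlhe41 and below for Cry2, with the narrowest gaps for Bhlhe40 and Bhlhe41.

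Myelin and oligodendrocyte genes had the higher mean in high rats in 22 of 22 members at or above the level, against 48.9% of all 8483 genes. Their median difference was 0.37, or 1.29-fold, against -0.00 for all genes, and 8 had an unadjusted p under 0.05, against 3.04% of all genes in that direction. That count was 14 after quantile normalization, 17 after centring and 7 without rats 3 and 9. Groups did not overlap for 3 members, against 3.74% of all genes. All 22 kept the sign after quantile normalization, after centring and without rats 3 and 9, where the median was 0.30. A relation of these genes to the score was known from the same rats, so it is no independent support. It was not graded over the 10 rats. The myelin list score was 0.22, 0.42 and 0.19 in middle rats 6, 7 and 10. That was above high rats 5, 8 and 9, at 0.02, 0.03 and -0.18. Drd1 and the striatal genes moved with the myelin genes, with the values given below.

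Sox10, the transcription factor that oligodendrocytes need to mature, was at 8.62, 8.23, 8.38 and 8.07 in high rats 4, 5, 8 and 9 and at 7.59, 7.75 and 7.58 in low rats 1, 2 and 3. Every high rat lay above every low rat, and the difference was 0.69 ± 0.13, or 1.61-fold (limma adjusted p = 0.842). Mag, a myelin adhesion protein gene, was at 9.93, 9.44, 9.76 and 9.43 against 9.13, 9.12 and 8.76, a difference of 0.64 ± 0.16. Fa2h, which makes hydroxylated myelin lipids, was at 9.91, 10.06, 9.85 and 9.56 against 9.44, 9.16 and 9.50, a difference of 0.48 ± 0.13. High rat 9 was the lowest of the high rats in all 3 genes.

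The 5 other myelin genes with an unadjusted p under 0.05 overlapped between the groups, each through rat 9. Ugt8, of galactolipid synthesis, differed by 0.60 ± 0.24 and Myrf, a regulator of myelin genes, by 0.48 ± 0.19. The membrane protein gene Mog had 0.45 ± 0.19, Cnp, an enzyme gene of myelin cytoplasm, 0.42 ± 0.17 and Qdpr, of biopterin recycling, 0.31 ± 0.10. Mbp, the myelin basic protein gene, had the smallest difference of the list at 0.13 ± 0.11, and its 2 other probe sets were at -0.15 and 0.35. None of the 22 had a middle mean between the groups. The 7 oligodendrocyte precursor genes at or above the level split into 4 higher and 3 lower.

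Genes of striatal projection neurons, the main neurons of the striatum, had the higher mean in high rats in 15 of 16 members (median 0.34), and in 16 of 16 after quantile normalization. Over all 8483 genes the share before that step was 48.9%. Drd1, the D1 dopamine receptor gene, was at 9.07, 7.25, 7.73 and 5.98 in high rats 4, 5, 8 and 9 and at 6.23, 5.91 and 5.79 in low rats 1, 2 and 3. Rat 9 was level with the low rats, and the other high rats lay well above them. The difference was 1.53 ± 0.67 (limma adjusted p = 0.842). The middle rats spanned nearly the whole range, with 6.28, 9.60 and 8.38 in rats 6, 7 and 10.

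Only Rarb, a retinoic acid receptor gene, and Foxp2, a transcription factor gene, had an unadjusted p under 0.05 on that list, against 3.04% of all genes in that direction. The count was 2 after quantile normalization, 7 after centring and 4 without rats 3 and 9. Rarb was at 5.83, 4.36, 4.77 and 4.37 in the high rats and 3.70, 3.59 and 4.14 in the low rats, the low values lying around the background level. Its difference was 1.02 ± 0.38, and that of Foxp2, which deep cortical layers also express, 0.33 ± 0.13. Ppp1r1b, which encodes DARPP-32, the phosphatase inhibitor of dopamine signalling, was at 10.86, 9.71, 9.90 and 9.27 against 9.17, 9.26 and 9.17. High rat 9 was level with the low rats, and the difference was 0.74 ± 0.35. The enkephalin precursor gene Penk had 0.78 ± 0.42 and the D2 receptor gene Drd2 0.73 ± 0.48. The striatal marker Adora2a was below the level.

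Of 13 genes of dopamine receptors and signalling at or above the level, 11 had the higher mean, against 48.9% of all 8483 genes. Many of the 11 were the striatal genes just named. Gng7, a G protein subunit gene, had 0.73 ± 0.39. Maoa and Maob, which break down monoamines, had -0.11 ± 0.07 and -0.21 ± 0.13. Dopamine's own synthesis and transporter genes Th and Slc6a3 were below the level, as were Drd3, Drd4 and Drd5. None of the 13 had an unadjusted p under 0.05, against 3.04% higher and 3.91% lower of all genes. After centring 3 of the 13 did, and without rats 3 and 9 there were 4 higher and 2 lower.

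Striatal and myelin scores are set beside Drd1 here, and Drd1 is itself 1 of the 16 genes of the striatal score. Over the 15 other genes the striatal score was 0.58, -0.20, 0.02 and -0.36 in high rats 4, 5, 8 and 9 and -0.38, -0.42 and -0.37 in low rats 1, 2 and 3. The myelin score was 0.30, 0.02, 0.03 and -0.18 against -0.13, -0.32 and -0.56. In both scores rat 4 was highest of the 7, and high rat 9 overlapped the low group. The score of cortical excitatory neurons lay between -0.06 and 0.07 in the high rats and between -0.08 and 0.06 in the low rats.

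**Figure D4:**
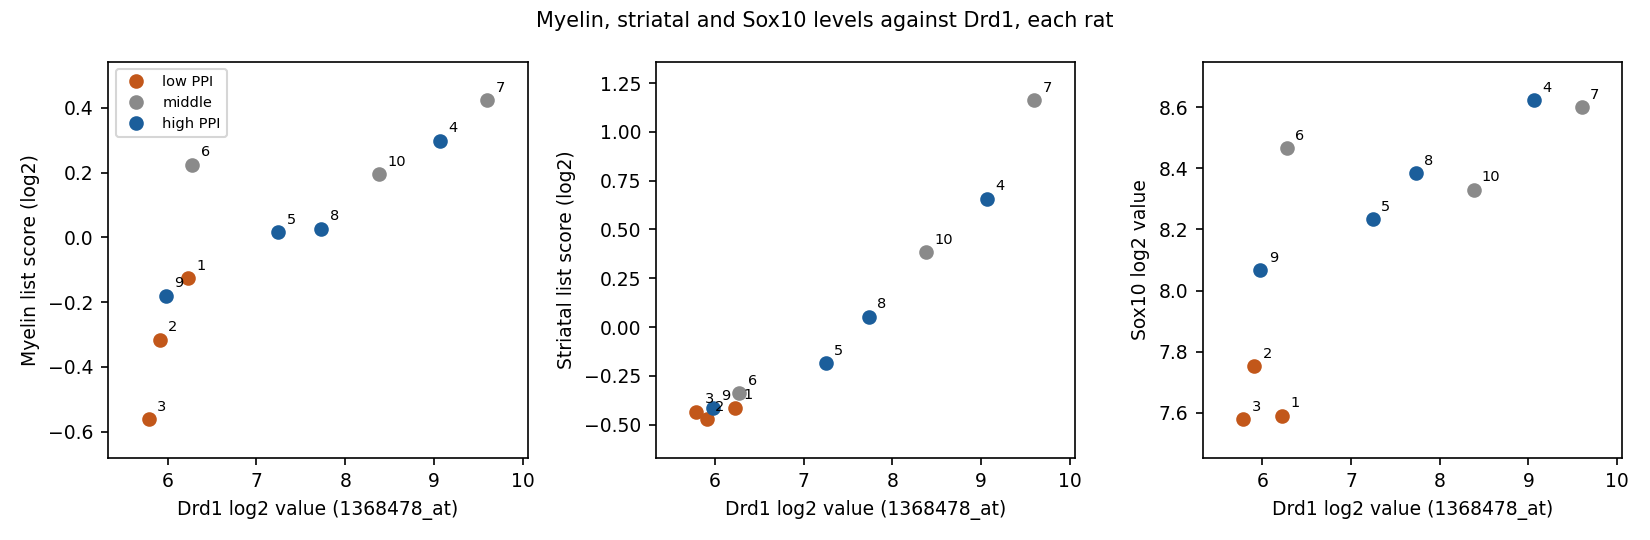
The x axis is the log2 value of Drd1 and the y axes are the myelin list score, the striatal list score (which includes Drd1) and the log2 value of Sox10; points are rats with their numbers, coloured by group. Rats 7 and 4 are high and low rats 2 and 3 low in all 3 panels, and high rat 9 sits among the low rats for both scores but above them for Sox10.

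The fit with Drd1 as a covariate gives an estimate of the group difference at equal Drd1. Among high rats only rat 9, at 5.98, lay within the low rats' Drd1 range of 5.79 to 6.23. The other high rats were at 7.25 to 9.07. Without rat 9 the groups do not overlap in Drd1, so such fits extrapolate a slope and compare no rats of equal Drd1. By limma the Drd1 fit again called 0 of 21260 probe sets (0.0%, smallest adjusted p = 0.950), and 785 (3.69%) had an unadjusted p under 0.05. Of these 311 (1.46%) were higher and 474 (2.23%) lower, a split that turned to 560 and 311 after quantile normalization and to 422 and 329 after centring. Of the 22 myelin genes 19 still had a positive difference, against 38.0% of all 8482 genes, but the median was 0.08 (background -0.04 over all genes), and without rats 3 and 9 it was -0.07 with 9 positive. Sox10 had 0.41 ± 0.08 and Mag 0.36 ± 0.14, which was 0.17 without rat 9. Of 15 striatal genes 4 were positive, with a median of -0.05. Ppp1r1b had -0.03 ± 0.14, a sign that turned after quantile normalization, and Penk -0.16 ± 0.09. Without rat 9 these were -0.29 and -0.27.

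With Drd1 held equal, the differences were 0.52 ± 0.11 for Dbp, 0.62 ± 0.27 for Per1, 0.23 ± 0.08 for Nr1d2, 0.27 ± 0.09 for Bhlhe40 and -0.23 ± 0.08 for Cry2, against 0.07 ± 0.07 for Bhlhe41. Of the 18, 3 higher and 1 lower had an unadjusted p under 0.05, against 1.92% and 3.43% of 8482 genes (5.35% in either direction). After quantile normalization these were 3 higher and 0 lower, after centring 4 and 0, and without rats 3 and 9 they were 2 and 3. Leaving out rat 9 alone gave 0.07 for Nr1d2, 0.16 for Bhlhe40, -0.06 for Bhlhe41 and -0.40 for Cry2.

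From the Drd1 fit the 5 genes of smallest p in each direction were taken. In 8 of these 10 genes rat 9, the high rat with low Drd1, had the lowest or highest value of the 7 rats. Septin11, of the septin cytoskeleton, was at 6.19, 5.75, 5.68 and 5.03 in high rats 4, 5, 8 and 9 and from 6.13 to 6.25 in the low rats. Its difference was -1.06 ± 0.13 with the covariate and -0.53 ± 0.25 without. Mrps2, a mitochondrial ribosomal protein gene, was at 4.39, 4.01, 3.89 and 3.39 against 4.28, 4.29 and 4.28, and had -0.83 ± 0.10 and -0.36 ± 0.22. Both other Mrps2 probe sets had the opposite sign without the covariate. Bcl10, a signalling adaptor of the NF-kB pathway, Kdm3a, a histone demethylase gene, and Nfyc, a subunit of the CCAAT-binding factor, had -0.44 ± 0.05, -0.31 ± 0.04 and -0.42 ± 0.06. Without the covariate these 3 differed by -0.03, -0.08 and -0.06, each within its SE of 0.11 to 0.18. The other Nfyc probe set at or above the level differed by 0.02 with the covariate and 0.11 without.

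On the positive side stood Cbr1, Sox10, Asb6, Ccdc124 and Rnf126. Asb6, of a family of ubiquitin ligase adaptors, was at 4.32, 4.47, 4.33 and 4.57 in the high rats and 3.80, 4.01 and 4.16 in the low rats. Its difference was 0.59 ± 0.11 with the covariate and 0.43 ± 0.10 without, and the groups did not overlap. The low values of Asb6 lay around the background level. Ccdc124 had 0.70 ± 0.13 and 0.34 ± 0.18, and the ubiquitin ligase gene Rnf126 0.28 ± 0.05 and 0.12 ± 0.08. Rat 9 had the highest value of these 3 genes.

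Candidate genes of sensorimotor gating and schizophrenia had the higher mean in 6 and the lower in 11 of 17, a split that was 9 and 8 after quantile normalization. The 4 with an unadjusted p under 0.05 were all lower in high rats, against 3.91% of all genes in that direction. After quantile normalization there were 2 lower (Ncam1 and Nrg1) and 1 higher (Pde4b, a phosphodiesterase gene, at 0.17), and Tcf4 was at -0.09. Tcf4, a transcription factor of neural development, was at 13.31, 13.32, 13.33 and 13.32 in high rats 4, 5, 8 and 9 and at 13.52, 13.53 and 13.37 in low rats 1, 2 and 3. The high rats were nearly equal, low rat 3 lay just above them, and the difference was -0.15 ± 0.04. Nrg1, the ligand of the receptor ErbB4, was at 5.22, 5.12, 5.00 and 5.20 against 5.27, 5.37 and 5.35, a difference of -0.20 ± 0.06. The other Nrg1 probe set at or above the level was at -0.00, and Erbb4 differed by 0.10 ± 0.12.

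Ncam1, a neural adhesion molecule gene, had -0.23 ± 0.07, with overlap through low rat 3 at 9.62 and high rat 9 at 9.63, and its 2 other probe sets were at -0.22 and -0.19. Grm5, a metabotropic glutamate receptor gene whose loss in mice is known to lower prepulse inhibition, had -0.20 ± 0.08, with overlap. Reln and Dtnbp1 differed by -0.06 ± 0.14 and 0.00 ± 0.05, the latter with no stable sign after rescaling. The serotonin receptor gene Htr2a had -0.08 ± 0.14, the stress hormone receptor gene Nr3c1 -0.01 ± 0.12, a sign that turned after quantile normalization, and Crh 0.14 ± 0.07.

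Of 6 NMDA receptor subunit genes 4 had the lower mean in high rats, and 3 after quantile normalization. Over all 8483 genes 4331 had the lower mean. Grin2b, an NMDA receptor subunit gene chosen after its values were seen, was at 8.97, 9.01, 8.89 and 9.27 in the high rats and 9.31, 9.48 and 9.31 in the low rats. The groups did not overlap, by a margin set by rat 9, and the difference was -0.33 ± 0.10. The subunit genes Grin1 and Grin2a differed by 0.12 ± 0.10 and -0.14 ± 0.09. Of 14 AMPA, kainate and metabotropic receptor genes 9 had the lower mean, also after either rescaling, and the AMPA subunits Gria2 and Gria4 had -0.19 ± 0.08 and -0.09 ± 0.04. Grm5 and Gria2 had an unadjusted p under 0.05, against 3.91% of all genes in that direction, and 0 of the 14 did after quantile normalization.

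Of 21 genes of synaptic vesicle release 15 had the lower mean, against 4331 of all 8483 genes. After quantile normalization the count was 10, against 3199 of all genes. Sv2b, a vesicle glycoprotein gene, was at 13.93, 14.05, 13.94 and 14.10 in the high rats and 14.32, 14.38 and 14.10 in the low rats, so high rat 9 and low rat 3 were level. Its difference was -0.26 ± 0.08. Rims1 and Bsn, scaffolds of the site of release, had -0.20 ± 0.08 and -0.18 ± 0.07. Of 14 GABA genes 6 were higher and 8 lower, and 0 had an unadjusted p under 0.05. Gad1, which makes GABA, differed by 0.01 ± 0.13 and Pvalb, a marker of fast-spiking interneurons, by 0.10 ± 0.08.

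Activity-induced genes varied widely within both groups. Fos was at 9.59, 7.42, 9.66 and 8.56 in the high rats and at 8.14, 9.08 and 9.60 in the low rats, a difference of -0.13 ± 0.63. Arc, a regulator of synaptic strength, differed by -0.06 ± 0.68 and Egr1 by -0.17 ± 0.10. The groups overlapped fully in Fos and Arc.

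Bdnf, the growth factor gene, was the 1 of 16 such genes with an unadjusted p under 0.05 on its probe set of highest mean and was chosen after its values were seen. The share over all 8483 genes was 6.96% in either direction and 3.91% with the lower mean, so this count is near it. Bdnf was at 8.82, 8.71, 8.87 and 8.92 in high rats 4, 5, 8 and 9 and at 9.06, 9.19 and 9.06 in low rats 1, 2 and 3. All high rats lay below all low rats, as did the 3 middle rats at 8.78, 8.68 and 8.61. The difference was -0.28 ± 0.06 (limma adjusted p = 0.842), and -0.24 ± 0.08 with Drd1 (-0.37 without rat 9). A second Bdnf probe set was below the level.

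Homer1, a scaffold of glutamate receptors at the synapse, was likewise chosen after its values were seen. On its probe set of smallest p it was at 10.61, 10.39, 10.44 and 10.65 in the high rats and 10.88, 11.02 and 11.16 in the low rats. The groups did not overlap, and the difference was -0.49 ± 0.09 (limma adjusted p = 0.842). The 4 other Homer1 probe sets had differences of -0.19, -0.17, -0.16 and -0.14. The unadjusted p was under 0.05 on 3 of the 5, but not on the probe set of highest mean, which stands for Homer1 in the count above. Which transcript of Homer1 each probe set measures was not analysed here.

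Energy and translation genes showed small differences that depended on the scaling. Of 54 oxidative phosphorylation genes 26 were higher and 28 lower (median -0.00), and 47 were higher after quantile normalization. Ndufb3 and Ndufa5, subunits of the first respiratory complex, had -0.22 ± 0.07 and -0.18 ± 0.05, and Uqcrc2, of the third complex, -0.10 ± 0.05. Of 33 ribosomal protein genes 9 were higher, 24 after quantile normalization and 0 without rats 3 and 9.

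Markers of other cell types that the tissue piece could hold differed less evenly. Meningeal and fibroblast genes had a median of -0.31 in 12 members with 2 higher, and rats 3 and 9 had the highest scores, as given above. Their median was 0.27 with Drd1 as a covariate, and -0.83 with Drd1 and without those rats. In the latter fit the groups do not overlap in Drd1, so -0.83 rests on an extrapolated slope. Of 16 astrocyte genes 12 had the lower mean with a median of -0.03, against 4331 of all 8483 genes with the lower mean. After quantile normalization 9 of the 16 had the lower mean, against 3199 of all genes. Endothelial and pericyte genes were lower in 11 of 13, among them Tek at -0.32 ± 0.13 and Rgs5 at -0.56 ± 0.26. Of 12 choroid plexus and ependyma markers on the array 1 was at or above the level, while Ttr and Kl were below it. That list's score was 0.69 in high rat 9, against -0.27 to 0.08 in the other compared rats. Of 10 olfactory bulb markers 4 were at or above the level, while Omp and Eomes were below it. The olfactory bulb score was 0.30 in low rat 1, against -0.17 to 0.03 in the other compared rats.

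**Figure D5:**
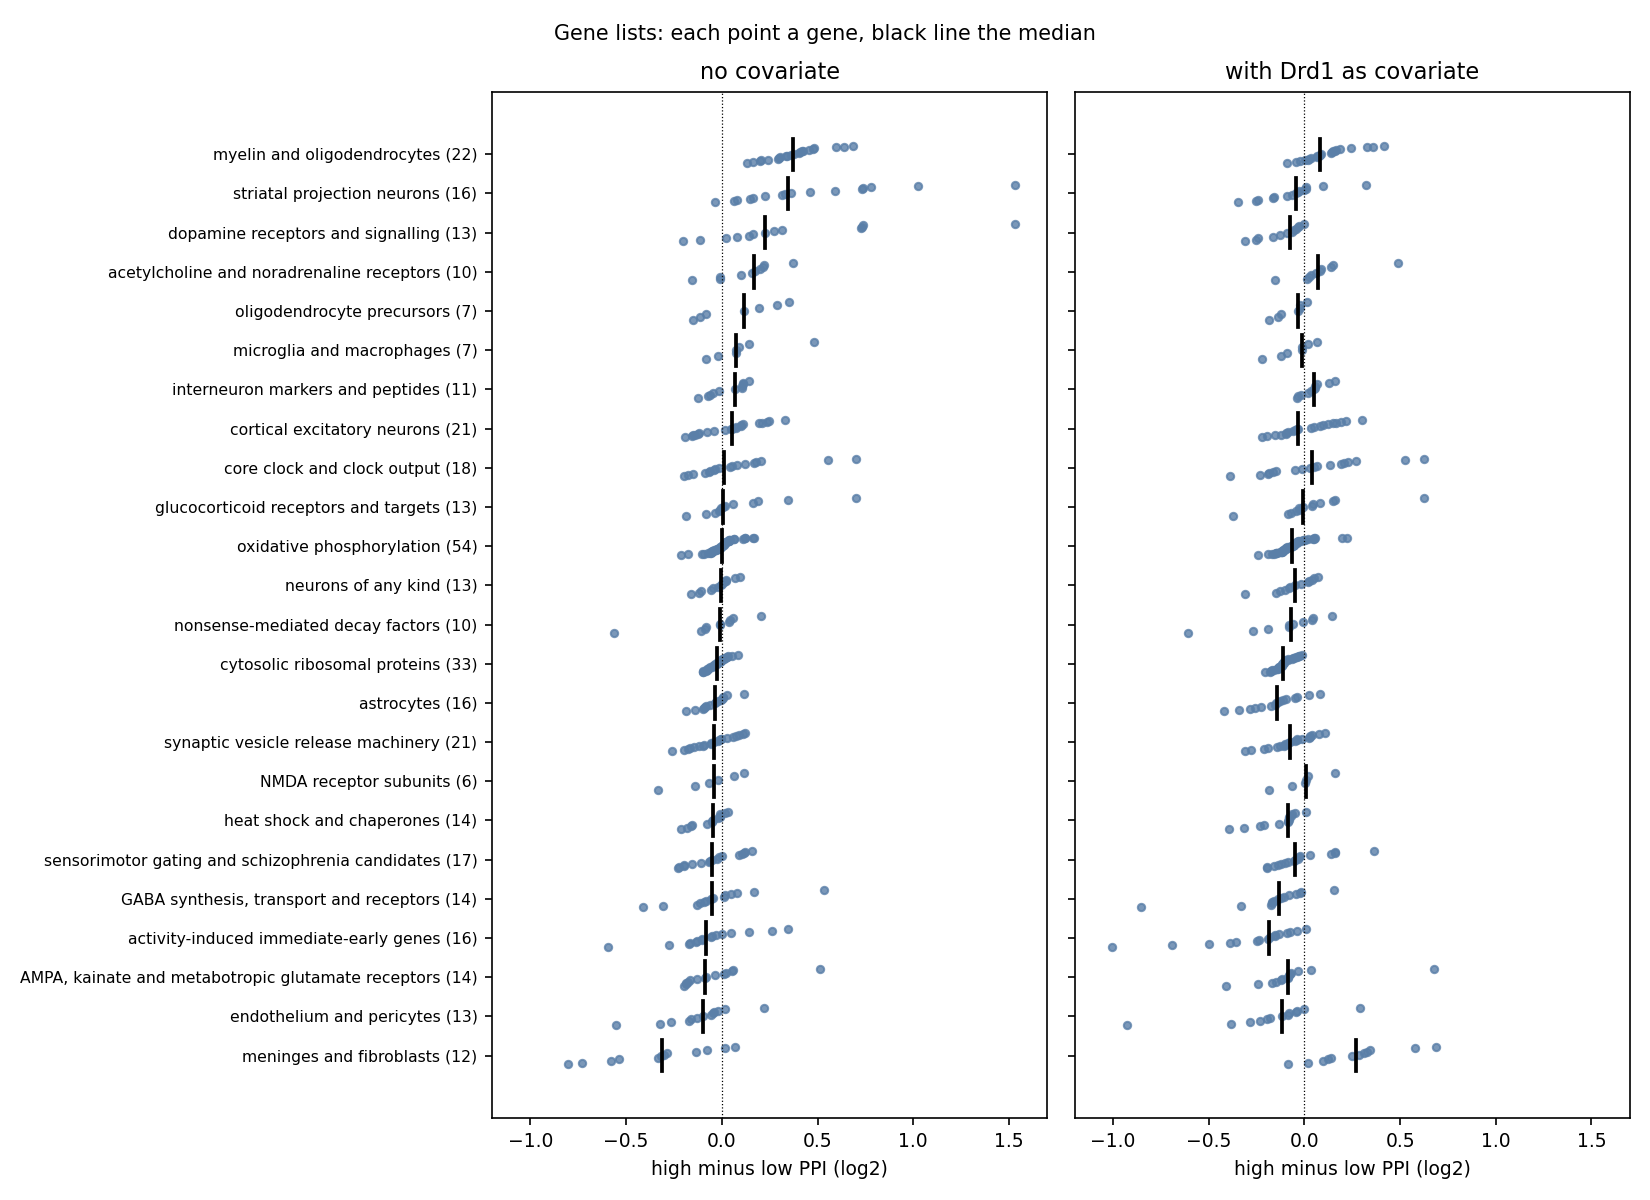
Rows are gene lists with the number of members at or above the level in brackets, and the x axis is the difference between high and low rats in log2, without a covariate on the left and with Drd1 on the right; each point is a gene and black lines are medians. The myelin and striatal medians of 0.37 and 0.34 on the left stand at 0.08 and -0.05 on the right, while the clock list has single genes far from 0 in both panels.

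Low-signal probe sets shifted slightly as a whole. Of 9413 named probe sets below the level, 89.7% had the higher mean in high rats, with a median difference of 0.02 log2. The share was 66.6% over all 21262 and 48.9% over the 8483 genes at or above the level. A fit of the probe sets at or above the level alone gave 664 with an unadjusted p under 0.05. At or above the level the median SE of a difference was 0.09 without and 0.11 with the covariate.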

How the data were processed

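The deposited log2 values per probe set were made with GCRMA under R 2.6.2, per the submitters' processing notes. No version of GCRMA itself is named there. As a method GCRMA adjusts background by probe sequence, which presses low signals together, so small differences between them are not reliable. Names came from the platform annotation: 20826 probe sets had 1 symbol, 436 several and 9780 none. Differences between high and low rats came from limma 3.58.1 under R 4.3.3 (lmFit, eBayes, two-sided, Benjamini-Hochberg over all named probe sets, threshold 0.05), without and with Drd1 as a covariate, and the fit was checked on simulated data. Behaviour was tested with scipy 1.17.1. The number of arrays limits the precision.

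Lists used the probe set of highest mean per gene, at or above the level, and have no test. Named genes were, per direction, the 10 of smallest p (5 with Drd1) with 1 symbol, at or above the level and of the same sign without any 1 of the 7 rats, up to 3 members by p from any list that had at least 2 under 0.05, and a panel. Other members were named after their values were seen. The groups, genes and lists were chosen with earlier results of these data known. Plus maze scores, held by 5 of the 7 rats, were not used. Alternatives covered scaling, filters, tests, covariates and left-out rats.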

Additional observations from a re-analysis of the deposited data

Results flagged for a closer look

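In the 70 sets of 4 high rats examined, 3 held a rat whose gap to the nearest other exceeded the limit of Dixon's test. Chance alone gives about 1 in 20 over independent sets. These sets share the same 4 rats, so whether 3 differs from chance cannot be told. Rat 5 had Rtkn at 9.64, against 9.56 to 9.57 in the other high rats, and Necab3 at 8.44, against 8.32 to 8.34. In both genes the other 3 high rats remained above the low rats. Rat 4 had a locomotion score of 17987, against 10278 to 11237 in the other high rats and 12985 to 17045 in the low rats.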

How the results depend on the processing

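No paired analysis was possible because the groups share no replicate numbers. Number of probe sets passing the adjusted threshold: 0 under every alternative run in both fits, except 1 with sugar feeding as a covariate (in place of Drd1) and 1 without rat 5 (0 to 1 when single rats were left out, with and without Drd1). The 878 with an unadjusted p under 0.05 became 1490 over all non-control probe sets, 1422 with startle as a covariate, 1404 without rats 3 and 9 (chosen after seeing the data), and 598 (without rat 8) to 2163 (without rat 1) when 1 rat was left out, 1579 without rat 3. The 785 of the Drd1 fit became 432 at or above the level, 484 in the unmoderated test, 491 with 10 rats, 1760 without rats 3 and 9, and 620 to 1460 without single rats, the highest without rat 3.

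The myelin median of 0.37 was 0.13 per SD of the score over 10 rats, -0.033 with the myelin score itself as a covariate, 0.60 with sugar feeding and 0.63 with startle, and 0.23 to 0.50 without single rats. The striatal median was 0.80 with sugar feeding. The groups do not overlap in sugar feeding, so every fit with that covariate, here and below, extrapolates a slope and compares no rats of equal feeding. Clock medians were 0.11 with sugar feeding and, in the Drd1 fit, 0.12 after quantile normalization, -0.018 to 0.066 without single rats (lowest without rat 9) and -0.025 without rats 3 and 9. The causes were not tested.

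Signs turned in 34 results on single genes and held in 1260. No gene was called in either main fit, so these counts say nothing about called genes. Per SD of the score Fos had 0.13, Arc 0.17 and Gad1 -0.0022; with sugar feeding Fos 1.25, Arc 0.88 and Erbb4 -0.0011; with startle Fos 0.10 and Nr3c1 0.12. With the striatal score Drd2 had -0.14, Penk -0.015, Gad1 -0.16 and Nr3c1 0.013; with the myelin score Arc 0.44, Penk -0.11, Gad1 -0.23 and Mbp -0.13. Nr3c1 had 0.038 after quantile normalization and 0.048 with the spike-in level. Without rats 3 and 9 Fos had 0.28, Arc 0.75 and Gad1 -0.056. Without single rats Fos ran from -0.54 to 0.33, Arc from -0.60 to 0.58, Gad1 from -0.076 to 0.094, Htr2a from -0.16 to 0.053 and Nr3c1 from -0.15 to 0.072.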

Other observations

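Xpnpep3 encodes a mitochondrial aminopeptidase and was picked from its values. It had the largest difference of all genes at or above the level. It was at 6.06, 6.04 and 6.34 in high rats 4, 8 and 9 and at 4.14 in high rat 5, against 3.70, 3.66 and 3.74 in low rats 1, 2 and 3 and 4.46, 4.14 and 3.65 in middle rats 6, 7 and 10. Thus 3 of the 10 rats stood apart, and the other 7 lay at 3.65 to 4.46. Low rats 1, 2 and 3 and middle rat 10 lay below the level, where signals are mostly near background. The mean of Xpnpep3 over the 10 rats, 4.59, was above the level through high rats 4, 8 and 9. The difference was 1.94 ± 0.53, and it passed the adjusted threshold only when rat 5 was left out (limma adjusted p = 0.00813, and 0.0126 with Drd1).

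Upf3b, a factor of nonsense-mediated decay chosen after its values were seen, was at 6.85, 6.43, 6.90 and 6.88 in high rats 4, 5, 8 and 9 and at 7.49, 7.40 and 7.10 in low rats 1, 2 and 3. The groups did not overlap, and the difference was -0.56 ± 0.15 (limma adjusted p = 0.842). Of the 9 other decay factors measured at or above the level, 0 had an unadjusted p under 0.05. Over all 8483 genes the share was 3.91% with the lower mean and 6.96% in either direction. All high rats lay below all low rats in 2 of the 10 decay factors, against 2.97% of all genes.

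Nmt2, an N-myristoyltransferase gene, was at 3.16 to 3.53 in the high rats and 3.97 to 4.06 in the low rats on a probe set below the level. It was the 1 probe set called with sugar feeding as a covariate (limma adjusted p = 0.0224), and its difference without it was -0.64 ± 0.09 (adjusted 0.747). As the groups do not overlap in sugar feeding, the fit with that covariate compares no rats of equal feeding.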
